A study of Mus musculus with 10 samples.

Results

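miR-193 and miR-365 are microRNAs (miRNAs) of adipose tissue that are encoded by 4 mouse hairpin genes, and their reads were followed here in sperm. The 4 members, mmu-mir-193a, mmu-mir-193b, mmu-mir-365-1 and mmu-mir-365-2, were taken by name from 1136 miRNA features, among 1468 small RNA features of all kinds in the series. The group was chosen by the diet contrast of these same samples, in which mmu-mir-365-1 had the largest log2 fold change of the miRNA features tested. The levels of the members on the 2 diets are therefore given as a description, without a p-value. All 4 members passed the filter on low counts.

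Small RNAs were sequenced from the sperm of C57BL/6J male mice of the parental generation (F0), 5 samples on a high-fat diet (HFD-F0, 42% kcal fat) and 5 on a control diet (CD-F0, 10% kcal fat). Both diets began at 4 weeks of age and lasted 10 weeks, and the labels name no transgene or drug. Mature sperm were collected from the epididymal tail and the vas deferens, which are lined by epithelium and wrapped in smooth muscle. Neither the labels nor the methods say whether 1 sample is 1 mouse, so the error between samples may be partly technical.

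A miRNA is cut from the stem of a hairpin RNA and pairs with messenger RNAs mainly through its seed, the bases from position 2 to position 8. The miR-193b/miR-365 cluster is known for its high level in brown fat, where it was reported to be induced by the brown fat regulator PRDM16 and to favour the brown over the muscle fate, although mice without this cluster were later reported to form brown fat. In white adipocytes miR-193b is known as a regulator of inflammatory signals. In mouse the cluster exists as a pair of copies on different chromosomes, each with 1 miR-193 and 1 miR-365 hairpin.

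The mature sequences show why the members fall into 2 kinds and why both miR-365 genes have to be read together. They are from RefSeq on GRCm38.p6 (mm10), 5′ to 3′, with the seed in capitals.
mmu-miR-193a-3p: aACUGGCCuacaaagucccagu
mmu-miR-193b-3p: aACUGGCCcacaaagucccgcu
mmu-miR-365-3p: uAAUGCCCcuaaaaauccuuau
mmu-miR-365-1-5p: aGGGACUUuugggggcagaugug
mmu-miR-365-2-5p: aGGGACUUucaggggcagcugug

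The 3p arms of miR-193a and miR-193b carried the same seed, which no other entry among 1679 mature names of the RefSeq table carried. Counted from the 5′ end, they differed by U9C, A20G and G21C, with the base of miR-193a first. The 3p arm of miR-365 was identical in both genes, and its seed was found in no other entry. The 5p arms of miR-365-1 and miR-365-2 shared their seed and differed by U10C, G11A and A19C, with the base of miR-365-1 first. The 5p arms of miR-193a and miR-193b, not listed above, did not share a seed and differed at 5 of 22 bases. The deposited tables count reads per hairpin and not per arm, so the arms could not be separated.

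Both pairs lie on the plus strand. Mir193a (chr11:79711969-79712034) and Mir365-2 (chr11:79726400-79726511) are 14365 bases apart, and neither hairpin overlaps another gene of GENCODE M21. The nearest protein-coding genes are Rab11fip4 and Utp6. Mir193b (chr16:13449523-13449601) and Mir365-1 (chr16:13453840-13453926) are 4238 bases apart, inside the span of the minus-strand noncoding gene Gm15738 but outside its annotated exons. Mrtfb and Parn are the nearest protein-coding genes on either side. The mature 3p arms themselves are at chr11:79712009-79712030 for miR-193a, chr16:13449570-13449591 for miR-193b, and chr11:79726467-79726488 and chr16:13453895-13453916 for miR-365.

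The libraries held 29558751 to 32178088 clean reads, and miRNAs took 15.4 to 18.2% of them on the control diet and 14.5 to 23.5% on the high-fat diet. Levels are given as RPM, reads per 1000000 clean reads. No library was a copy of another: over 45 pairs the lowest chi-square per degree of freedom was 508, which does not show that the samples came from separate mice. All 12 sperm and germ cell marker miRNAs were detected, with a summed level of 13453 to 16392 RPM for CD-F0 and 9887 to 19359 RPM for HFD-F0. The summed markers of muscle and stroma were higher still, at 15876 to 36525 RPM over the 10 samples, and 94.9% of them were mmu-mir-143. In such bulk samples, fewer cells of a type and less RNA per cell cannot be told apart.

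The members were scarce but detected in every library. By mean RPM, mmu-mir-193b ranked 292nd, mmu-mir-193a 350th, mmu-mir-365-2 364th and mmu-mir-365-1 367th of the 1136 miRNA features. Their reads over all 10 libraries came to 3035.5 for mmu-mir-193b, 1334.5 for mmu-mir-193a, 1138.5 for mmu-mir-365-2 and 1104.5 for mmu-mir-365-1, and all of these reads matched the genome. Fractions of a read arise because the authors' counting divides a read that fits several features.

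mmu-mir-193b was the most abundant of the 4 hairpins. Its level was 15.1, 6.55, 6.21, 5.77 and 12.2 RPM in CD-F0 replicates 1 to 5. In HFD-F0 replicates 1 to 5 it was 10.4, 10.5, 6.60, 16.1 and 7.38 RPM. The ranges overlapped almost fully, with CD-F0 replicates 1 and 5 and HFD-F0 replicate 4 at the top. The mean was 9.17 ± 4.24 RPM for CD-F0 and 10.2 ± 3.72 RPM for HFD-F0 (SD, n = 5 each), and the log2 fold change from edgeR was 0.04 (standard error 0.35).

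mmu-mir-193a, which carries the same 3p seed, stood lower. It measured 4.52, 3.67, 2.79, 1.54 and 4.17 RPM in the CD-F0 replicates in order. In the HFD-F0 replicates it measured 5.23, 7.41, 3.93, 6.92 and 2.13 RPM. Of the HFD-F0 samples, 3 lay above the highest CD-F0 sample, while HFD-F0 replicate 5 lay among the lowest. The CD-F0 and HFD-F0 means were 3.34 ± 1.20 and 5.13 ± 2.17 RPM (SD, n = 5 each), and the log2 fold change of 0.53 (standard error 0.37) did not pass the study's thresholds of p at or under 0.05 and an absolute log2 fold change of at least 1.

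The miR-365 hairpins gave nearly the same value in each sample. mmu-mir-365-2 had more reads than mmu-mir-365-1 in 5 of 10 samples, fewer in 2 and the same number in 3, and the gap reached at most 17 reads, or 8.17% of their sum, in CD-F0 replicate 5. The hairpins share an unbroken run of 27 bases that holds the whole 3p arm, and a read from inside it cannot be assigned to either gene. Their sum is therefore the measured quantity, and which cluster its reads came from was not resolved. For the miR-193 hairpins the longest shared run was 10 bases, and their counts held a fraction of a read in 7 of 10 samples while the sum of both was whole in all 10. This run does not bound the divided reads, because 1 mismatch was allowed and U9C is the only 3p difference before A20G. A whole count can also hold divided reads, so their number is not known.

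The summed mmu-mir-365 level was 5.22, 3.20, 3.32, 1.81 and 6.64 RPM in CD-F0 replicates 1 to 5. It was 8.12, 14.1, 6.50, 15.3 and 6.87 RPM in HFD-F0 replicates 1 to 5. Of the 5 HFD-F0 samples, 4 lay above the highest CD-F0 sample, and HFD-F0 replicate 3 fell just below it. The lowest value, in CD-F0 replicate 4, rested on 57 reads, with a 95% Wilson interval of 1.40 to 2.35 RPM that covers counting error only. The highest, in HFD-F0 replicate 4, rested on 490 reads and was 8.47-fold higher.

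The mean of the summed mmu-mir-365 level was 4.04 ± 1.90 RPM for CD-F0 and 10.2 ± 4.21 RPM for HFD-F0 (SD, n = 5 each), a ratio of 2.52. In the edgeR fit its log2 fold change was 1.25 (standard error 0.39). Taken singly, mmu-mir-365-1 was at 1.93 ± 0.835 RPM and 5.08 ± 2.13 RPM (SD, n = 5 each), with all 5 HFD-F0 samples above the highest CD-F0 sample. Such separation in this direction was seen for 15 of 529 miRNA features tested (2.84%). mmu-mir-365-2 was at 2.11 ± 1.06 RPM and 5.12 ± 2.09 RPM (SD, n = 5 each), and its groups overlapped, with 3 of 5 HFD-F0 samples above the highest CD-F0 sample of 3.59 RPM.

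The log2 fold changes of mmu-mir-365-1 (1.32, standard error 0.39) and mmu-mir-365-2 (1.20, standard error 0.41) were the largest 2 among the 529 miRNA features, and both passed the study's thresholds. These thresholds use p without adjustment, and neither hairpin stayed under 0.05 after Benjamini-Hochberg adjustment over the 814 features tested. Together with mmu-mir-145a they were the only miRNA features up-regulated past these thresholds, 3 of 529 (0.567%), and the miR-365 pair is 1 signal counted in 2 features. Just inside the fold threshold stood mmu-mir-145a at 1.09 and just outside it mmu-mir-486a at 0.98, which did not pass on p either. Without HFD-F0 replicate 4 the log2 fold change of mmu-mir-365-2 was 0.97, under the threshold, and that of the sum was 1.02. None of these values adds support, because the same contrast chose the members.

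**Figure D1:**
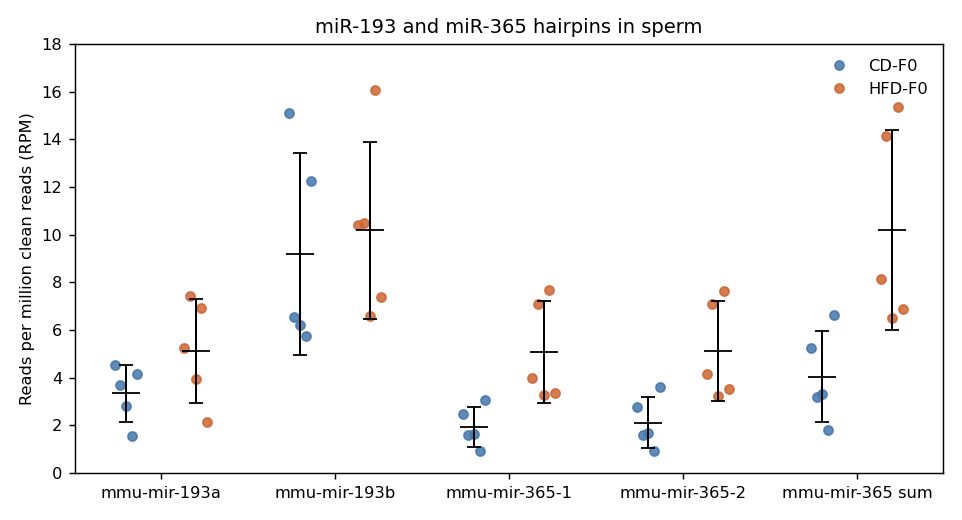
Level of each hairpin and of the miR-365 sum in RPM (vertical axis, linear from 0), 1 point per sample, with the mean as a bar and the SD as whiskers (n = 5 per group). The miR-365 means stood at 4.04 RPM in CD-F0 and 10.2 RPM in HFD-F0, while the mmu-mir-193b points of both diets overlapped.

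Within a sample, mmu-mir-193b could be tested against mmu-mir-193a, a comparison that holds none of the miR-365 reads that chose the group. mmu-mir-193b was higher in 10 of 10 samples, by 1.22 ± 0.47 on the log2(RPM + 0.1) scale (SD, n = 10 samples), or 2.33-fold (p = 0.00195, the smallest value the exact sign-flip permutation test can give, two-sided, and 0.00586 after Benjamini-Hochberg adjustment over the 3 pairs computed). The miR-365 sum is placed without a test. It lay above mmu-mir-193a in 9 of 10 samples, all but CD-F0 replicate 2, and below mmu-mir-193b in 9 of 10, all but HFD-F0 replicate 2. Its place differed between the groups, which describes the values that chose the members: it lay well under mmu-mir-193b in the CD-F0 samples, while in the HFD-F0 samples both had a mean of 10.2 RPM. The mature arms are all 22 or 23 bases long, so no length scaling was applied, and differences in how well each sequence is captured in a library cannot be told apart from differences in amount.

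The ratio of miR-365 to its cluster partners stood higher in the HFD-F0 samples. For miR-365 over mmu-mir-193b it was 0.346, 0.488, 0.535, 0.314 and 0.542 in CD-F0 replicates 1 to 5. It was 0.782, 1.35, 0.984, 0.955 and 0.931 in HFD-F0 replicates 1 to 5. The groups did not overlap: miR-365 had roughly as many reads as mmu-mir-193b on the high-fat diet, with a mean ratio of 1.0 ± 0.210 (SD, n = 5), and fewer on the control diet, with 0.445 ± 0.108 (SD, n = 5).

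This ratio contains the miR-365 reads that chose the group and is likewise given without a test. Of 525 other miRNA features, 4 (0.762%) also had a non-overlapping, higher ratio to mmu-mir-193b in the HFD-F0 group. They were mmu-mir-10a, mmu-mir-10b, mmu-mir-125a and mmu-mir-145a, picked out after their values were seen. A shift against mmu-mir-193b was therefore not particular to miR-365.

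Against mmu-mir-193a the separation was less clean. The ratio of the miR-365 sum to mmu-mir-193a was 1.16, 0.871, 1.19, 1.18 and 1.59 in the CD-F0 replicates. In the HFD-F0 replicates it was 1.55, 1.91, 1.65, 2.22 and 3.22. Here 4 HFD-F0 samples lay above the highest CD-F0 sample, and the group means were 1.20 ± 0.258 and 2.11 ± 0.673 (SD, n = 5 each). The ratio of mmu-mir-193b to mmu-mir-193a overlapped widely, at 2.81 ± 0.800 for CD-F0 and 2.17 ± 0.796 for HFD-F0 (SD, n = 5 each).

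**Figure D2:**
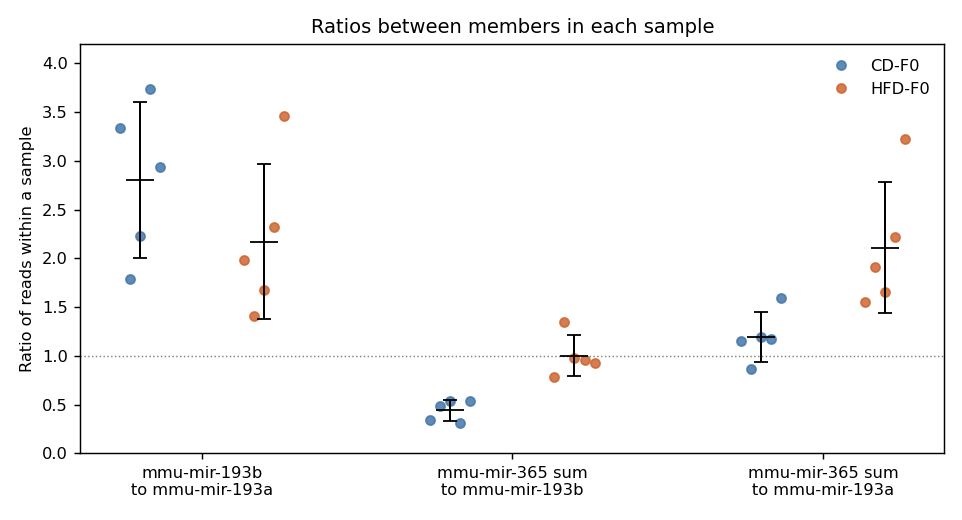
Ratios of reads between members within each sample (vertical axis, linear from 0), 1 point per sample, with the mean as a bar and the SD as whiskers (n = 5 per group), and a dotted line at a ratio of 1. Only for miR-365 over mmu-mir-193b, of the 3 ratios plotted, did the groups not overlap, with CD-F0 samples from 0.314 to 0.542 and HFD-F0 samples from 0.782 to 1.35.

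Among the samples of a diet, the members varied together. To take out the diet contrast, the group mean of log2(RPM + 0.1) was subtracted from each sample, and the 10 deviations were correlated in 5 relations. These relations overlap, because the miR-365 hairpins and their sum hold nearly the same reads. The partners on chromosome 16, mmu-mir-193b and mmu-mir-365-1, gave Pearson's r = 0.857 (permutation p = 0.00315, adjusted p = 0.00394) and Spearman's rho = 0.830 (permutation p and adjusted p = 0.00483). Without the 2 samples farthest from the median of mmu-mir-193b, r was 0.854 (exact permutation p = 0.00355).

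The partners on chromosome 11, mmu-mir-193a and mmu-mir-365-2, gave r = 0.836 (permutation p = 0.00172, adjusted p = 0.00343) and rho = 0.830 (permutation p = 0.00469, adjusted p = 0.00483), and r = 0.867 without the farthest 2 samples (exact permutation p = 0.00900). The miR-193 hairpins, which lie on different chromosomes, gave r = 0.737 with each other (permutation and adjusted p = 0.0153) and rho = 0.830 (permutation p = 0.00470, adjusted p = 0.00483). Without the farthest 2 samples this r was 0.809 (exact permutation p = 0.0209). Fractions of a read in 7 of 10 samples mean that some reads were divided between the miR-193 hairpins, so their counts were not fully independent. With the miR-365 sum, r was 0.849 for mmu-mir-193a (permutation p = 0.00122, adjusted p = 0.00343) and 0.865 for mmu-mir-193b (permutation p = 0.00206, adjusted p = 0.00343). The corresponding rho values were 0.842 (permutation p = 0.00375, adjusted p = 0.00483) and 0.830 (permutation p and adjusted p = 0.00483), and r was 0.875 (exact permutation p = 0.00818) and 0.871 (exact permutation p = 0.00179) without the farthest 2 samples. Because the miR-365 reads cannot be assigned to a gene, the relation within a cluster could not be separated from that across clusters.

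**Figure D3:**
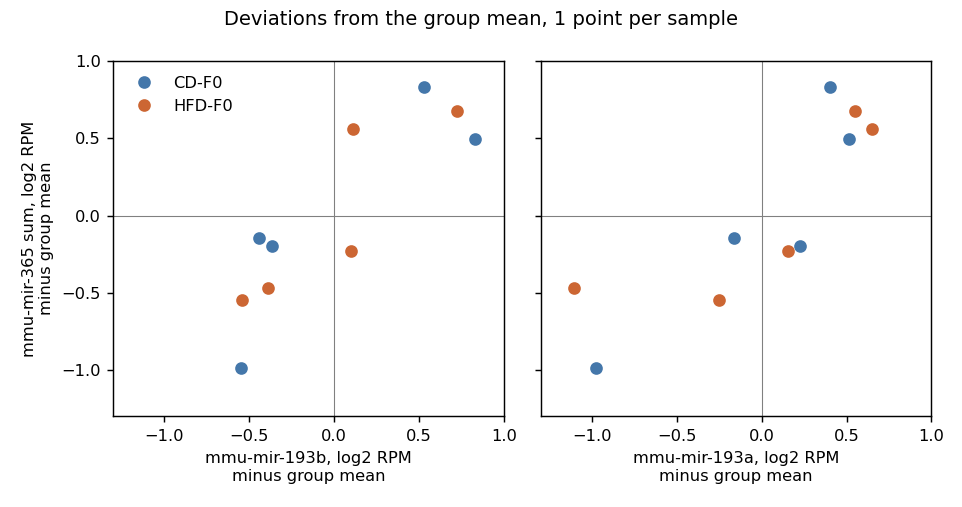
Deviation of the miR-365 sum from its group mean (vertical axis, log2 RPM) against that of mmu-mir-193b (left) and mmu-mir-193a (right), 1 point per sample. Points of both diets run from lower left to upper right, with r = 0.865 on the left and r = 0.849 on the right.

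The partners were close but not the closest. Of 525 other miRNA features, 9 (1.71%) followed mmu-mir-193b more closely than mmu-mir-365-1 did, led by mmu-mir-10a at r = 0.984 and mmu-mir-10b at r = 0.982. For mmu-mir-193a the leading features were mmu-mir-125b-1 (r = 0.949) and mmu-mir-125b-2 (r = 0.937). For the miR-365 sum they were mmu-mir-125a (r = 0.894) and mmu-mir-145a (r = 0.890), and 4 features (0.762%) were closer to it than mmu-mir-193b was. The median r of the 525 features was −0.15 with mmu-mir-193b, −0.02 with mmu-mir-193a and −0.19 with the miR-365 sum. These correlations are across samples that share library depth and are given as a description, with the leading features picked out after their values were seen.

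Over the 10 samples without removal of the diet means, the miRNA features most like the miR-365 sum by Spearman's rho of log2 RPM were mmu-mir-664 (rho 0.927, r 0.835), mmu-mir-125b-1 (rho 0.903, r 0.923), mmu-mir-125b-2 (rho 0.903, r 0.914), mmu-mir-10a (rho 0.891, r 0.906) and mmu-mir-10b (rho 0.891, r 0.906). mmu-mir-664 was as scarce as the members, at 2.55 to 6.00 RPM for CD-F0 and 6.28 to 7.74 RPM for HFD-F0. mmu-mir-10a, from a family encoded within the Hox gene clusters, was far more abundant, at 727 ± 287 RPM for CD-F0 and 1260 ± 343 RPM for HFD-F0 (SD, n = 5 each). The log2 fold changes of these 5 features ran from 0.60 to 0.87, and none passed the fold threshold. mmu-mir-193a and mmu-mir-193b had rho of 0.758 and 0.733 with the miR-365 sum, and 30 and 36 of the 525 features, respectively, ranked above them.

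Markers of the other cell types that a sperm collection can hold were set beside the members. The epithelial markers, the miR-200 family with mmu-mir-205, summed to 5519 ± 1194 RPM for CD-F0 and 6890 ± 1574 RPM for HFD-F0 (SD, n = 5 each), a ratio of 1.25 (p = 0.167, exact permutation test over 252 splits, two-sided, adjusted p = 0.556 over 4 lists). All 6 of them had a higher mean RPM in the HFD-F0 group. Such counts, here and for the lists below, rest on clean-read RPM without TMM scaling. Fitted on clean reads, the median feature shifted upward by 0.10 on the log2 scale. The share of all miRNA features with a higher mean RPM was not computed, so these counts are not read as a trend. The muscle and stroma markers, mmu-mir-143, mmu-mir-145a and the miR-1 and miR-133 hairpins, summed to 26111 ± 3613 RPM and 29202 ± 8232 RPM, a ratio of 1.12 (p = 0.444, same exact permutation test), and 4 of 6 were higher. The blood and immune markers, led by the red cell miRNA mmu-mir-451a, summed to 1949 ± 381 RPM and 2171 ± 659 RPM, a ratio of 1.11 (p = 0.556, same exact permutation test), and 6 of 7 were higher. This ratio was 0.981 without HFD-F0 replicate 2.

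The sperm and germ cell markers, among them the miR-34 and miR-449 hairpins, summed to 15226 ± 1269 RPM for CD-F0 and 13942 ± 3496 RPM for HFD-F0. The ratio was 0.916 (p = 0.476, same exact permutation test), although 8 of 12 markers had a higher mean RPM in the HFD-F0 group, a count with the same limit of scaling. Of the germ cell reads so summed, mmu-mir-449a alone held 43.6%. In edgeR this hairpin stood at −0.46 (log2, HFD-F0 over CD-F0), short of the study's thresholds. Whether the ratio, or the correlations of the germ cell sum given below, would hold without mmu-mir-449a was not tested. None of the 4 sums differed beyond the spread between samples, and no marker of any list was at 0 in all samples. The smallest p that the test allows is 0.00794.

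**Figure D4:**
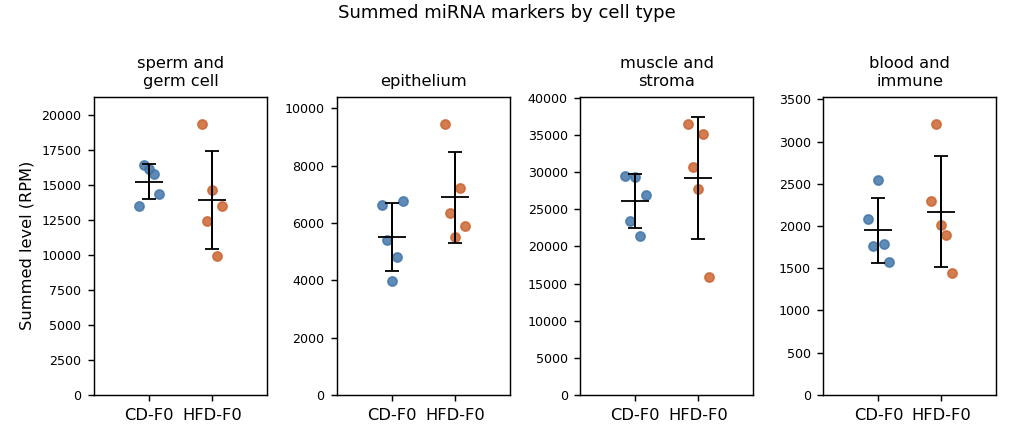
Summed level of the marker miRNAs of 4 cell types (vertical axes, RPM, each linear from 0 with its own scale), 1 point per sample, with the mean as a bar and the SD as whiskers (n = 5 per group). The diets overlapped for all 4 sums, and HFD-F0 replicate 4 had the lowest germ cell sum, at 9887 RPM.

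Sample by sample, HFD-F0 replicate 4, which had the highest mmu-mir-193b and miR-365 levels, had the lowest germ cell sum of its group, and CD-F0 replicates 1 and 5, the highest of their group for all members, had the lowest germ cell sums there, at 13453 and 14349 RPM. Over the 10 deviations from the group means, the germ cell sum had r = −0.31 with mmu-mir-193a, −0.54 with mmu-mir-193b and −0.59 with the miR-365 sum, and rho of −0.56, −0.64 and −0.62. The epithelial sum had r of 0.53, 0.73 and 0.49 and rho of 0.54, 0.73 and 0.48 in the same order. For muscle and stroma r was 0.79, 0.55 and 0.53, with rho of 0.61, 0.61 and 0.52, and for blood and immune cells r was 0.48, 0.05 and 0.21, with rho of 0.28, −0.04 and −0.01.

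None of these 12 relations passed after adjustment, and the smallest adjusted p in the permutation test was 0.161 for rho and 0.0746 for r. The latter was that of mmu-mir-193a with muscle and stroma, and that relation rested on 2 samples, CD-F0 replicate 4 and HFD-F0 replicate 5, without which r was 0.25. Without HFD-F0 replicates 1 and 4, r with the germ cell sum was −0.53 for mmu-mir-193a, −0.93 for mmu-mir-193b and −0.76 for the miR-365 sum (exact permutation p = 0.179, 0.00213 and 0.0309, unadjusted). Without CD-F0 replicate 3 and HFD-F0 replicate 1, r with the epithelial sum was 0.750, 0.967 and 0.952 in the same order (exact permutation p = 0.0374, 0.000174 and 0.00119, unadjusted). In each list the 2 samples left out were those whose marker sum deviated farthest from the median. The p-values without them account neither for this choice nor for the 12 relations, and no conclusion is drawn from them. With miRNA reads in place of clean reads as the denominator, 5 of the 12 relations passed after adjustment. These were the germ cell sum with mmu-mir-193a (r = −0.84), mmu-mir-193b (r = −0.72) and the miR-365 sum (r = −0.77), with permutation p adjusted over 12 relations of 0.0287, 0.0457 and 0.0417. The others were the epithelial sum with mmu-mir-193b (r = 0.716, adjusted permutation p = 0.0457) and the muscle and stroma sum with mmu-mir-193a (r = 0.735, adjusted permutation p = 0.0417). This second run of the 12 relations was adjusted only within itself. Both sides of a relation share a denominator that contains the marker reads, so its effect on r cannot be told apart. The part of other cell types in the members' levels was not tested.

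The other adipose miRNAs were read in 3 lists taken from general knowledge, 50 hairpins in all, of which 49 were tested and 1 passed the study's thresholds in edgeR, against 15 of 529 miRNA features (2.84%) in either direction, 12 of them lower in HFD-F0 (2.27%), and 30 of 814 features of all kinds (3.69%). In the list that promotes brown or beige fat, 0 of 16 passed in either direction in edgeR and also in DESeq2. The median log2 fold change was 0.01, beside −0.05 over the 529 miRNA features. An unadjusted edgeR p under 0.05 was held by 3, mmu-mir-30b, mmu-mir-30c-1 and mmu-mir-30c-2, all of the miR-30 family. The share of all features under this p alone was not computed, so such counts are not read as a result. The smallest p were those of mmu-mir-30c-1, with 204 ± 71.7 RPM for CD-F0 and 351 ± 36.1 RPM for HFD-F0 (SD, n = 5 each; log2 fold change 0.70, standard error 0.21, edgeR adjusted p = 0.225), and of mmu-mir-30c-2 (0.68, standard error 0.20, edgeR adjusted p = 0.225). miR-30c belongs to a family known to favour brown adipocyte formation, and its hairpins share their mature 5p arm. Without CD-F0 replicate 2 the list had 2 members past the thresholds.

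In the list that restrains brown or beige fat, 0 of 17 tested members, of 18 listed, passed in either direction in edgeR and also in DESeq2. The median was 0.03. The 3 with an unadjusted edgeR p under 0.05 were mmu-mir-221, mmu-mir-125b-1 and mmu-mir-125b-2, again without a share of all features beside them. mmu-mir-221, a miRNA linked to fat tissue inflammation, had 254 ± 41.4 RPM for CD-F0 and 452 ± 41.5 RPM for HFD-F0 (SD, n = 5 each), without overlap, and differed by 0.73 on the log2 scale (standard error 0.16, edgeR adjusted p = 0.116). It was 1 of the 15 of 529 miRNA features (2.84%) without overlap in this direction. mmu-mir-125b-1, whose miRNA is known to restrain brown adipocyte formation, had 141 ± 53.7 and 278 ± 113 RPM (SD, n = 5 each), and differed by 0.87 on the log2 scale (standard error 0.35, edgeR adjusted p = 0.407). The list had 1 member past the thresholds without HFD-F0 replicate 5, CD-F0 replicate 1 or CD-F0 replicate 5.

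In the white adipocyte list 1 of 16 passed upward and 0 downward, with a median of 0.02. The member that passed was mmu-mir-145a, which is also a smooth muscle marker. Its level was 359 to 811 RPM for CD-F0 and 787 to 2636 RPM for HFD-F0, and its log2 fold change was 1.09 (standard error 0.38, edgeR adjusted p = 0.293). It did not pass without HFD-F0 replicate 4, CD-F0 replicate 2 or CD-F0 replicate 4. mmu-mir-143, transcribed together with mmu-mir-145a and far more abundant, had a log2 fold change of 0.02. The next smallest p was that of mmu-mir-107, a regulator of insulin sensitivity (0.44, standard error 0.22, edgeR adjusted p = 0.477).

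**Figure D5:**
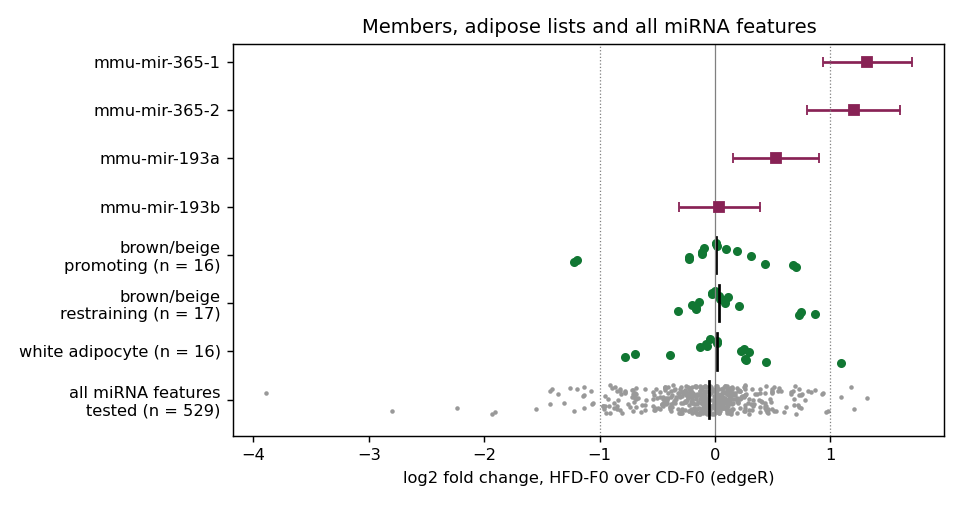
Log2 fold change of HFD-F0 over CD-F0 from edgeR (horizontal axis), with squares and standard errors for the members, dots for the tested members of 3 adipose lists and for all 529 miRNA features, vertical ticks at the medians and dotted lines at the fold threshold. The miR-365 hairpins stood at 1.32 and 1.20, mmu-mir-193b at 0.04, and the list medians between 0.01 and 0.03.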

How the data were processed

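The authors deposited, for each of 10 samples, a table of estimated counts per small RNA feature, not normalized, in which a read that fits several features is divided among them. Per the study's methods, a gel band of 18 to 30 nt RNA was used, the adapters held molecular identifiers, and clean reads were aligned with SPORTS and Bowtie with 1 mismatch allowed, to mm10 in the submitters' processing notes. Whether identifiers were collapsed is not given in the sources used here. Genome-matched and unmatched reads were added per feature. RPM is reads per 1000000 clean reads.

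Counts were rounded and tested with edgeR 4.0.16 in R 4.3.3 (quasi-likelihood test, TMM, filterByExpr, Benjamini-Hochberg adjustment over 814 features), as HFD-F0 against CD-F0. Calls used p at or under 0.05 and an absolute log2 fold change of at least 1, unadjusted, as in the study. Permutation tests were written in Python 3.11.15 (numpy 2.4.6, scipy 1.17.1), exact up to 9 samples and in sign flips or splits, otherwise with 100000 resamples, treating the deviations as exchangeable. The miR-365 sum replaced both hairpins in a second fit. DESeq2 1.42.0 and other alternatives are given in the closing section, and the model was tested on simulated data.

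The members and lists were chosen with earlier results of these data known. The named features were the members, in each adipose list every member past the thresholds or otherwise the 2 with the smallest p, each marker list by its sum, and the 5 miRNA features with the highest Spearman correlation to the miR-365 sum. The correlations of members with marker sums were added after the data were seen. Samples with the same replicate number are not stated to share anything.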

Additional observations from a re-analysis of the deposited data

How the results depend on the processing

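Over 18 alternatives to the edgeR fit, the log2 fold change of the miR-365 sum stayed between 1.02 and 1.48 and past the thresholds in 18, that of mmu-mir-365-1 between 1.09 and 1.53 in 18, and that of mmu-mir-365-2 between 0.97 and 1.45 in 17. mmu-mir-193a ran from 0.32 to 0.72 and mmu-mir-193b from −0.22 to 0.36 with 4 changes of sign, and neither passed in any. These alternatives repeat the contrast that chose the members, so they describe its dependence on the processing and add no support. With clean reads as library size the median feature shifted by 0.10, and after subtraction the miR-365 sum stood at 1.23 and mmu-mir-193b at 0.05. Without a filter on low counts, 93 features, 70 miRNA features, 17 higher and 53 lower, passed in place of 30, 15, 3 and 12. With at least 10 counts in every sample 19 features passed. Leaving out 1 sample gave 22 to 50 features, 9 to 30 miRNA features, 2 to 8 higher and 6 to 26 lower, and 0 to 2 in the promoting, 0 to 1 in the restraining and 0 to 1 in the white adipocyte list. The causes were not tested.

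Pairing of the samples by replicate number was not evident, although 5 pairs are too few to exclude it. Over these pairs r ran from −0.19 to 0.34, 2 were over 0.1, and 4 of 10 samples correlated best with their own number. With the replicate block the white adipocyte list had 0 members past the thresholds, and the miR-365 sum had a log2 fold change of 1.25.

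The ratio of the blood and immune sum ran from 0.981 to 1.21 when 1 sample was left out, and it was 0.981 without HFD-F0 replicate 2. That of the germ cell sum ran from 0.827 to 0.982. The partner correlations stayed between 0.687 and 0.917 when 1 sample was left out. The lowest miR-365 value rested on 57 reads, so depth limits statements on single samples.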
